A study of Homo sapiens with 10 samples.

Results

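The HOX genes examined here are the 38 human homeobox genes of the HOXA, HOXB, HOXC and HOXD clusters that were listed by name for this comparison, out of 19962 protein-coding genes with a start site in the annotation. They comprise 10 genes of HOXA, 10 of HOXB, 9 of HOXC and 9 of HOXD. Each gene was represented by its promoter windows, which reach 1 kb to either side of every transcription start site (TSS) in GENCODE release 44, basic set, and each cluster by the span from its first to its last gene (hg38). The measurement was ChIP-seq for H3K27ac, the acetylated form of histone H3 found at active promoters and enhancers, given as lists of peaks. SKBR3 and MDA-MB-453, both established HER2 breast cancer lines, were serum starved for 8 h. They were then left untreated or given the cytokine TWEAK, the ligand of the Fn14 receptor, at 10 ng/ml for 48 h with replenishment at 24 h. Each line contributed 2 untreated and 2 TWEAK libraries, so that the line comparison set 4 lists against 4 and each TWEAK comparison 2 against 2. Each line is a single cell line, and a difference between them is one between these cultures and not between tumour types.

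HOX genes encode transcription factors that give cells along the body axis their positional identity. Within a cluster the genes lie in the order in which they are used from head to tail, and low-numbered genes act towards the head. The clusters are classical targets of Polycomb complexes, which deposit H3K27me3, a methylation of the same lysine that is acetylated in H3K27ac, so that 1 histone tail cannot carry both marks at that residue. HOX proteins bind DNA together with PBX, MEIS and PKNOX proteins. In cultured epithelial cells and in tumours, which HOX genes are active often reflects the tissue of origin.

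SKBR3 lists held 43684 to 51687 peaks covering 3.04% to 3.49% of the autosomes and X, and MDA-MB-453 lists held 36148 to 37813 peaks covering 2.32% to 2.38%. Read depth is unknown, and strong peaks, those whose q-value as called by the authors lay under 1e-05, made up 39.4% to 52.6% of the SKBR3 lists and 59.8% to 63.8% of the MDA-MB-453 lists. The part of this difference in the comparisons between lines was not tested. The share of protein-coding genes with a promoter peak was nonetheless alike, at 55.8% to 58.2% over the 8 lists. Among the luminal and HER2 marker genes, 9 had a promoter peak in all 8 lists, ERBB2, KRT8, GATA3 and FOXA1 among them. TFAP2B had one in the 2 untreated SKBR3 lists, in neither SKBR3 TWEAK list and in all 4 MDA-MB-453 lists. Such a loss with TWEAK in SKBR3 was called for 0.646% of protein-coding genes. Of 9 markers of immune, stromal and endothelial cells, 7 had no peak in any list, while COL1A1 and CDH5 had one in all 8.

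Where in the clusters the lists differed is shown first by sequence. The stretches below are the central 300 bases, or all 131 bases at HOXD, of intervals covered in every list of both lines or in every list of 1 line and no list of the other. They were chosen after the peak positions were seen, as 1 shared and 4 line-specific intervals in HOXB, HOXC and HOXD whose centres hold no untranslated part of a protein-coding gene. They are read from the plus strand of hg38, and capitals mark matches to the HOX-PBX or NF-κB motif.
Covered in all 8 lists, intron of HOXC13, chr12:53943104-53943403: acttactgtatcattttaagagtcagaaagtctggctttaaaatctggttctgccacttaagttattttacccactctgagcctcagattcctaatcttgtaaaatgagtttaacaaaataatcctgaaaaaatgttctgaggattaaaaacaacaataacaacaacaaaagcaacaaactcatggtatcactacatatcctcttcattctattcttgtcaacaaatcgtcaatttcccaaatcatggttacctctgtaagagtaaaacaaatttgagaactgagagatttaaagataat
Covered in MDA-MB-453 only, HOXB3 gene body, chr17:48555127-48555426: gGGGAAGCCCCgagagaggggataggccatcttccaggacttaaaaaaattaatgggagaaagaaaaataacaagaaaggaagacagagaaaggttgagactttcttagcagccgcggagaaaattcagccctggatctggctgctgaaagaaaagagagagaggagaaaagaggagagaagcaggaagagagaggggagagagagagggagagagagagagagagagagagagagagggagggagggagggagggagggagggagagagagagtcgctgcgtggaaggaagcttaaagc
Covered in MDA-MB-453 only, between HOXC10 and HOXC9, inside the long HOXC6 gene model, chr12:53993051-53993350: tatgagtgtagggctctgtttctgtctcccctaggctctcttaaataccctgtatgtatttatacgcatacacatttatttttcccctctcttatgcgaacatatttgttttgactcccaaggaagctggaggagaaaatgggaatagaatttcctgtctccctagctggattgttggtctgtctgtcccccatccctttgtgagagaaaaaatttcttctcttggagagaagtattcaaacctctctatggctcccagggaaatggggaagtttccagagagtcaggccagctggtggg
Covered in SKBR3 only, intron of HOXC4, chr12:54038310-54038609: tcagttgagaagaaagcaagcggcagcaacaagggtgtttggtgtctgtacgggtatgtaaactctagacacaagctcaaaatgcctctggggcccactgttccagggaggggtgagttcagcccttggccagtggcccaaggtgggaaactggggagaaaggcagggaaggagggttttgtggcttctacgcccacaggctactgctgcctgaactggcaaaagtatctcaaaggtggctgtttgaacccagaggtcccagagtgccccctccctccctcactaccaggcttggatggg
Covered in MDA-MB-453 only, exon of the non-coding gene HAGLROS in HOXD, chr2:176178322-176178452: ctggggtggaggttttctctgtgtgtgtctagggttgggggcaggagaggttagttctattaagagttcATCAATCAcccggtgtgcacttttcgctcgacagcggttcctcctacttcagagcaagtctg

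The 5 stretches differed in base composition. GC content was 31.7% in the shared HOXC13 intron and 51% in the HOXB3 stretch, of which the latter part is a run of purine repeats. It was 44.7% and 56% in the HOXC stretches specific to MDA-MB-453 and SKBR3, and 51.9% at HAGLROS. The 4 motifs searched on both strands were the HOX-PBX composite (TGATNNAT), AP-1 (TGAGTCA or TGACTCA), NF-κB and the core of the CTCF motif. The HOX-PBX letters occurred in the HAGLROS stretch alone, at bases 70 to 77 of 131, and the NF-κB motif in the HOXB3 stretch alone, at bases 2 to 11. AP-1 and CTCF had 0 matches in all 5. RefSeq promoter windows (GRCh38.p14, 250 bases before to 50 after the start) were found for 20 of the 38 HOX genes and gave 26 distinct windows. HOXA2, HOXB1 and HOXD11 held the HOX-PBX motif, 3 of 26 windows beside 5.19% of 21468 windows of protein-coding genes. These 3 genes had no promoter peak in any list. The NF-κB motif was in 1 of 26 windows (HOXA2), beside 6.54%. AP-1 was in 0 of 26, beside 4.05%, and the CTCF core in 0 of 26, beside 0.429%. Such a match is a description of letters and not of binding.

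The clusters also encode microRNAs. Those of the miR-196 family share the seed AGGUAGU (bases 2 to 8, in capitals) although they come from 3 clusters, and they are shown with the miR-615 pair, whose gene was marked in 1 line, and with miR-10a, whose gene lies in HOXB.
hsa-miR-196a-5p, from MIR196A1 in HOXB and MIR196A2 in HOXC: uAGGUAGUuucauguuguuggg
hsa-miR-196b-5p, from MIR196B in HOXA: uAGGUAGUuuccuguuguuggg
hsa-miR-615-5p, from MIR615 in HOXC: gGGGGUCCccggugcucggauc
hsa-miR-615-3p, from MIR615 in HOXC: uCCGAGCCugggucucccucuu
hsa-miR-10a-5p, from MIR10A in HOXB: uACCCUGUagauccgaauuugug
Of the 8 microRNA genes in the clusters, MIR196A2 and MIR615 lay under a peak in the 4 MDA-MB-453 lists and in no SKBR3 list. The other 6, MIR196A1, MIR196B, MIR10A, MIR10B, MIR3185 and MIR7704, had no promoter peak in any list. The mature miR-196a-5p could thus come from either of 2 genes, of which the HOXC copy alone was marked.

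Promoter peaks were found at 9 of the 38 HOX genes. A promoter counted as marked when at least 1 base of a peak lay in one of its windows. HOXC4, HOXC6, HOXC9, HOXC10, HOXC11 and HOXC13 were marked in all 8 lists, as were 49.6% of all protein-coding promoters. HOXB2, HOXB3 and HOXC5 were marked in all 4 MDA-MB-453 lists and no SKBR3 list, 3 of 38 genes beside 3.24% of all protein-coding genes. No HOX gene had the reverse pattern, against 2.79% of all genes. With q under 1e-05, 3 genes (HOXC9, HOXC11 and HOXC13) were marked in all lists and 4 (HOXC10 in addition) in MDA-MB-453 only. With the canonical start of each gene alone, HOXC6 was marked in SKBR3 only. The other 29, beside a background of 35.0%, had no promoter peak in any list. They were all 10 HOXA genes (HOXA2, A3, A4, A5, A6, A7, A9, A10, A11 and A13), 8 HOXB genes (HOXB1, B4, B5, B6, B7, B8, B9 and B13), HOXC8 and HOXC12, and all 9 HOXD genes (HOXD1, D3, D4, D8, D9, D10, D11, D12 and D13). Each SKBR3 list thus marked 6 HOX genes and each MDA-MB-453 list 9, with no list departing from its line. In bulk chromatin a low or absent signal in every cell cannot be told apart from signal in few cells, and signal too weak to be called leaves no trace in a list.

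**Figure D1:**
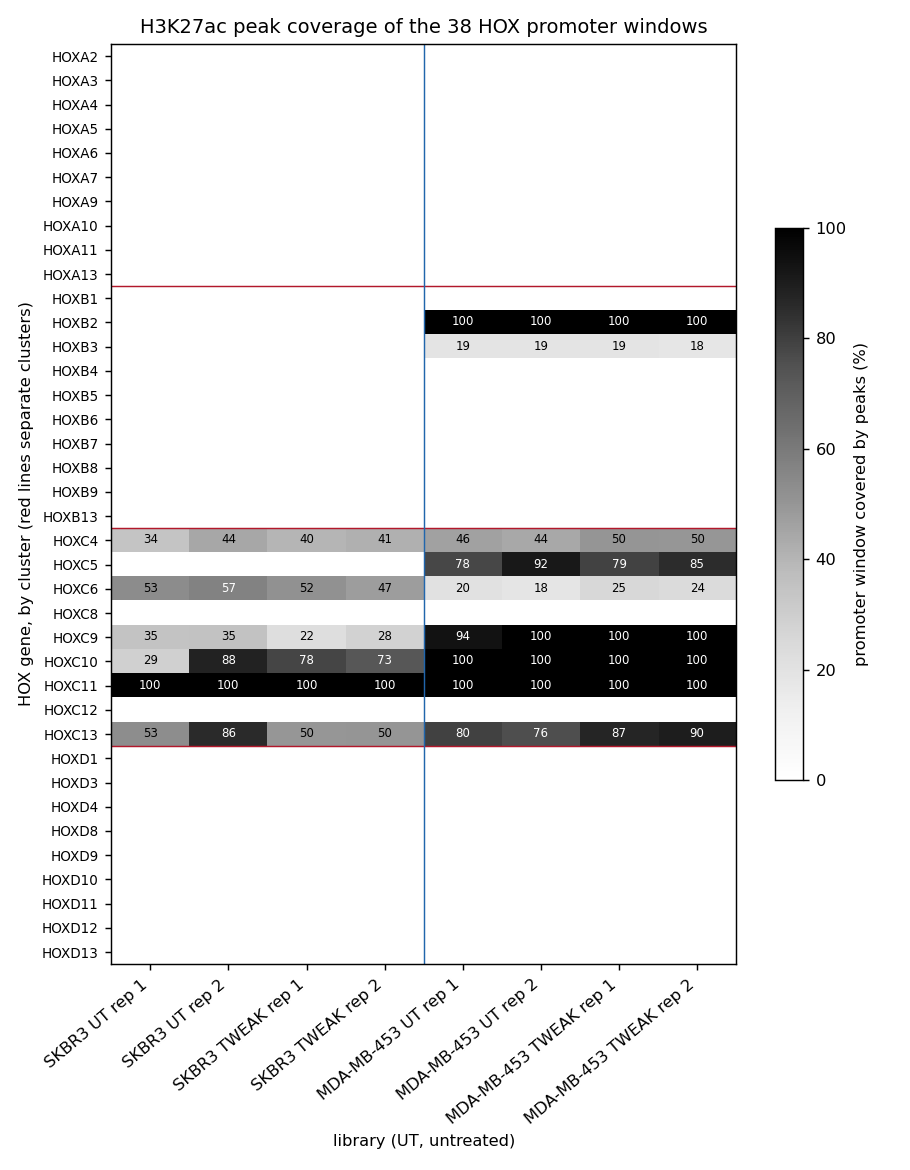
Share of each HOX gene's promoter windows covered by H3K27ac peaks, in percent, for the 38 genes (rows, by cluster) in the 8 libraries (columns). Shading and printed values fall at 9 genes only, 6 of them in both lines and HOXB2, HOXB3 and HOXC5 in MDA-MB-453 alone.

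The HOXA cluster (chr7:27100354-27200091) was bare in both lines. It holds HOXA9 and HOXA10, known from leukaemia and from the uterus, and HOXA13, a gene of the limb tip and urogenital tract. Peaks covered 0 kb of its 99.7 kb in all 8 lists. The nearest peak lay 235.0 to 235.1 kb below the cluster in SKBR3 and 385.2 to 385.9 kb below it in MDA-MB-453. On the other side it lay 146.1 to 146.5 kb away in 7 lists and 441.6 kb away in SKBR3 untreated replicate 1.

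The HOXD cluster (chr2:176092721-176190907) was nearly bare. HOXD genes pattern the limbs and digits. The 4 SKBR3 lists covered 0 kb of its 98.2 kb. MDA-MB-453 lists covered 0.900 and 0.232 kb untreated and 0.419 and 0.699 kb after TWEAK, a mean of 0.562 kb ± 0.296 (SD, n = 4). Each held a single short peak at HAGLROS, ranking at percentile 22.6 and 26.8 untreated and 40.2 and 14.7 after TWEAK, where the percentile is the rank of a peak by the authors' −log10 q in its own list. The 4 peaks had 131 bp in common, the HAGLROS stretch printed above. No HOXD promoter window was reached by them.

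HOXB held called peaks in the MDA-MB-453 lists only. It runs along the minus strand (chr17:48528526-48728750), and its genes range from HOXB1 and HOXB2, which act in hindbrain segments, to HOXB13, a prostate gene. The 4 SKBR3 lists had 0 peaks in the 200.2 kb. The MDA-MB-453 lists had 2 peaks each, covering 12.8 and 13.1 kb untreated and 12.7 and 12.6 kb after TWEAK. The MDA-MB-453 mean was 12.8 kb ± 0.194 (SD, n = 4), which is 6.40% of the cluster, and no list of one line came near any list of the other. The exact two-sided permutation test over 70 assignments of the libraries gave p = 0.0286, the smallest it allows (adjusted p = 0.114 over the 12 cluster tests).

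Both HOXB peaks sat at the end of the cluster where HOXB2 and HOXB3 lie, and none of the genes from HOXB4 to HOXB13 was touched. The first interval common to the MDA-MB-453 lists ran from 48540970 to 48548572 (7603 bp). It held the HOXB2 start at 48545109 and that of the antisense gene HOXB-AS1, and covered all 2001 bp of the HOXB2 window in each MDA-MB-453 list. The peak ranked at percentile 70.2 and 67.9 untreated and 69.6 and 69.6 after TWEAK. HOXB2 had the highest mean percentile in its cluster, 69.3 ± 0.980 (SD, n = 4).

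The second HOXB interval, from 48553063 to 48557490 (4428 bp), lay at 1 of the 8 HOXB3 starts, at 48553922, and at the start of HOXB-AS2. It covered 2001, 2001, 2001 and 1860 bp of the window there, in the order untreated replicates 1 and 2 and TWEAK replicates 1 and 2. The canonical HOXB3 start at 48590241 and the 6 others had no peak in any list. HOXB3, which acts with HOXB2 in the hindbrain, was therefore marked only at the start nearest to HOXB2. The peak ranked at percentile 56.2, 55.4, 57.9 and 60.1. HOXB4 shares 994 bp of window with HOXB3, outside the marked part, and was not marked.

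**Figure D2:**
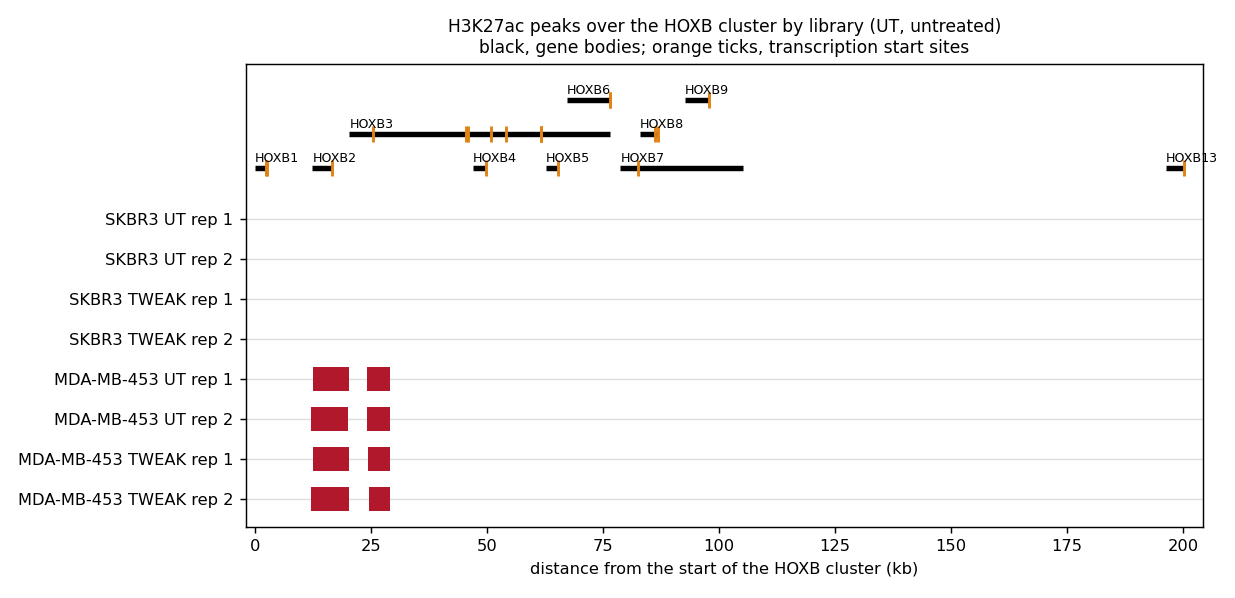
H3K27ac peaks over the HOXB cluster in each of the 8 libraries (bars), against distance in kb from the cluster start, with gene bodies in black and transcription start sites as orange ticks. Each MDA-MB-453 library has 2 peaks, at HOXB2 and at 1 HOXB3 start, and the SKBR3 libraries have 0.

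HOXC (chr12:53938831-54056030) was acetylated in both lines and more widely in MDA-MB-453. It lies on the plus strand with HOXC13 first and HOXC4 last. SKBR3 lists covered 26.5 and 31.8 kb untreated and 23.9 and 27.2 kb after TWEAK. MDA-MB-453 lists covered 45.0 and 48.9 kb untreated and 49.6 and 51.6 kb after TWEAK. The lowest MDA-MB-453 list thus lay above the highest SKBR3 list. The means were 27.4 kb ± 3.29 and 48.8 kb ± 2.79 (SD, n = 4 each), or 23.4% and 41.6% of the cluster, a 1.78-fold difference of 21.4 kb. The exact permutation test again gave its smallest p, 0.0286 (adjusted p = 0.114). The totals of the lists ran the other way, at 92.1 to 105.7 Mb in SKBR3 and 70.5 to 72.1 Mb in MDA-MB-453. Other measures of the lists ran the same way as HOXC. Median peak width was 1249 to 1338 bp in SKBR3 and 1397 to 1430 bp in MDA-MB-453. Covered promoter length was higher without overlap in MDA-MB-453 for 22.1% of protein-coding genes and in SKBR3 for 8.77%. The part of these list properties in the HOXC difference was not tested.

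For HOXD the same exact permutation test gave p = 0.0286 for the mean difference of 0.562 kb (adjusted p = 0.114). No cluster test had an adjusted p under 0.05. The unadjusted p of HOXD was not robust. It rose above 0.05 without any 1 of the 4 SKBR3 libraries (exact permutation p = 0.0571 each). There the difference stayed at 0.562 kb, since every SKBR3 list had 0 kb, and only the set of assignments changed. The p of HOXD also rose above 0.05 when only peaks with q under 1e-05 were kept, which left 0.105 kb (exact permutation p = 1). For HOXA, with 0 kb everywhere, p was 1.

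**Figure D3:**
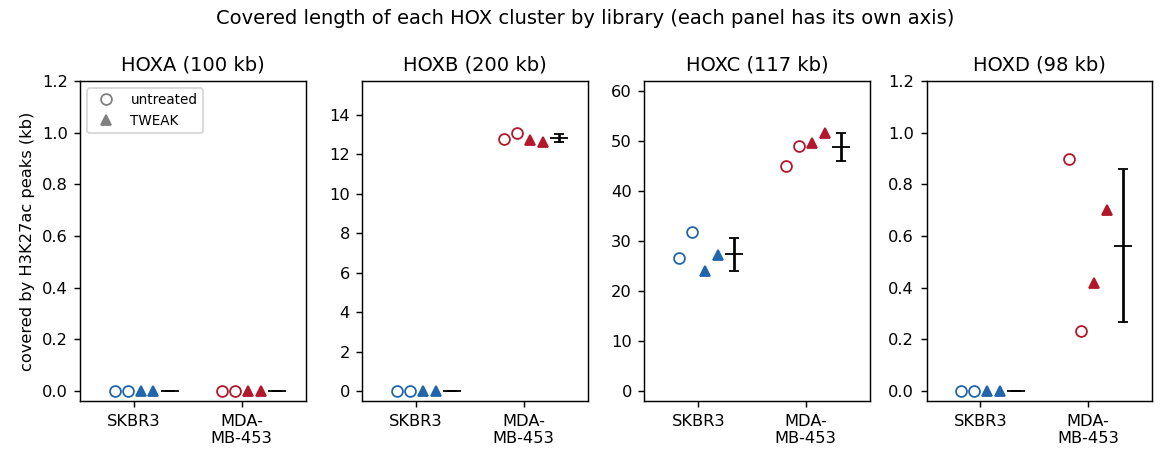
Length covered by H3K27ac peaks in kb (vertical axis, own scale in each panel) for the 4 HOX clusters in SKBR3 (blue) and MDA-MB-453 (red). Open circles are untreated libraries, triangles TWEAK libraries, and black marks the mean with SD of 4 libraries. HOXA lies at 0 throughout, and at HOXC the 2 lines do not overlap.

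Base by base, 63.0 kb of HOXC was covered in at least 1 list. Of this, 16.5 kb (26.2%) was covered in all 8 lists, 19.6 kb (31.1%) in the 4 MDA-MB-453 lists alone and 1.89 kb (2.997%) in the 4 SKBR3 lists alone. Over the autosomes and X these shares were 18.2%, 9.52% and 16.8%. In HOXB, 12.03 of 13.38 kb (89.9%) was covered in all MDA-MB-453 lists and no SKBR3 list.

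The extra length of HOXC in MDA-MB-453 lay mainly between HOXC11 and HOXC9. The widest peak was 19808 and 32195 bp untreated and 31017 and 23251 bp after TWEAK, and only 7 to 36 peaks of a list were wider. In all 4 lists it ran across the starts of HOXC10 and HOXC9, and in untreated replicate 2 and TWEAK replicate 1 across HOXC11 as well. The widest SKBR3 peaks of the cluster were 8311 and 10685 bp untreated and 7161 and 7184 bp after TWEAK, and 755 to 1944 peaks of a list were wider. That of untreated replicate 2 lay at HOXC13 and the others at HOXC11. At the starts of HOXC10 and HOXC9 the SKBR3 peaks spanned 571 to 2649 bp. The longest interval private to MDA-MB-453, from 53987031 to 53999370 (12340 bp), held MIR196A2, the start of HOXC-AS2 and the upstream HOXC9 start.

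**Figure D4:**
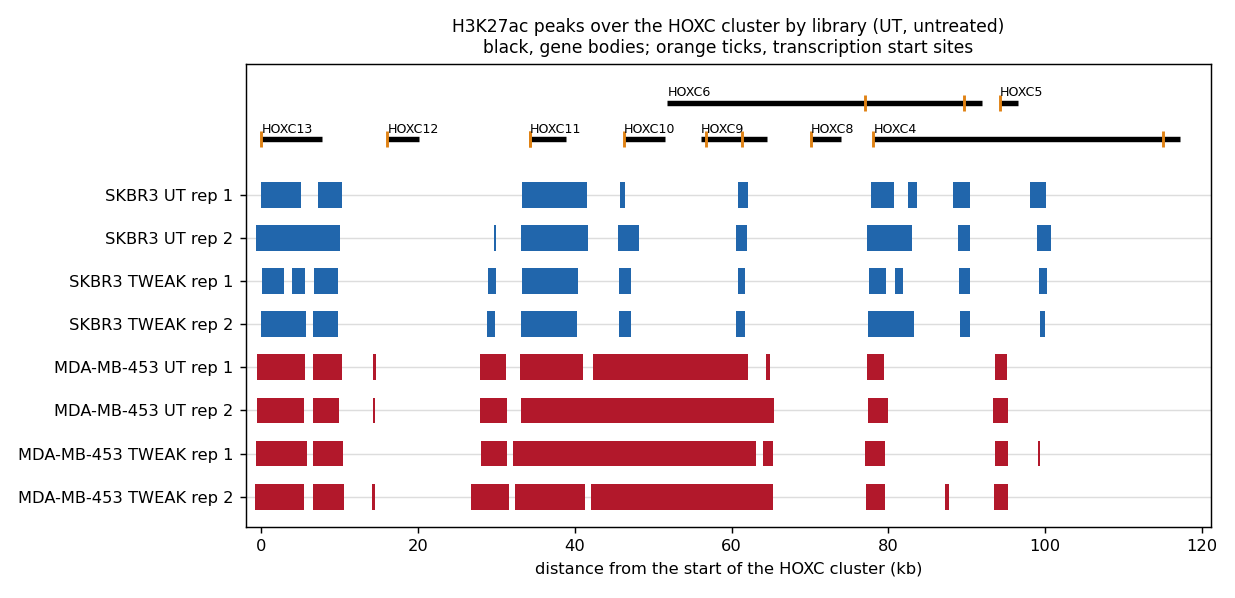
H3K27ac peaks over the HOXC cluster in each of the 8 libraries (bars), against distance in kb from the cluster start, with gene bodies in black and transcription start sites as orange ticks. In MDA-MB-453 a peak of 19808 to 32195 bp joins HOXC10 and HOXC9, while SKBR3 has separate short peaks there and alone has a peak at the downstream HOXC6 start.

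At the HOXC13 end, whose genes act in the hind part of the body, HOXC13 and HOXC11 were marked in both lines. HOXC13, a regulator of hair keratin genes, had 1063 and 1713 bp of its 2001 bp window covered in SKBR3 without TWEAK and 996 and 1001 bp with it. MDA-MB-453 lists covered 1591 and 1521 bp of it untreated and 1748 and 1801 bp after TWEAK. The lines overlapped through SKBR3 untreated replicate 2 (exact permutation p = 0.0857, adjusted p = 0.155 over 12980 genes tested). HOXC11 was covered over its whole window of 2003 bp in all 8 lists, so covered length could not separate the lines there. Its peak ranked at percentile 72.1 and 78.1 in SKBR3 without TWEAK, 65.0 and 70.2 with it, and between 89.5 and 90.7 in the 4 MDA-MB-453 lists. The SKBR3 mean of 71.4 ± 5.41 (SD, n = 4) was the highest of any HOX gene in that line.

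HOXC10, a gene of lumbar and hindlimb motor neurons, was narrower in SKBR3. Its covered length there was 571, 1765, 1564 and 1460 bp in untreated replicates 1 and 2 and TWEAK replicates 1 and 2, against the full 2001 bp in every MDA-MB-453 list. HOXC9, which sets thoracic identity in the spinal cord, had 1383, 1402, 881 and 1112 bp of its 4002 bp of windows covered in SKBR3. In MDA-MB-453 it had 3750, 4002, 4002 and 4002 bp. Its canonical start at 54000161 was marked in all 8 lists, and its upstream start at 53995509 in the 4 MDA-MB-453 lists only. Its SKBR3 percentiles were 75.3, 55.2, 71.1 and 73.0, and those of HOXC10 were 51.4, 36.3, 38.1 and 36.6. Between the lines the covered lengths of these 2 genes did not overlap, with mean differences of 661 and 2744.5 bp. HOXC10 and HOXC9 had the highest mean percentile of the HOX genes in MDA-MB-453, 90.1 ± 0.512 (SD, n = 4), at 89.8, 89.5, 90.4 and 90.6 in the 4 lists, and they share these values because they lie under 1 peak.

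At the HOXC4 end the lines differed at some starts and shared others. HOXC6, a gene of the thoracic region that is also active in mammary tissue, has 2 starts. The canonical one at 54028440 had 1803, 1535, 1507 and 1267 bp covered in the SKBR3 lists and 0 bp in each MDA-MB-453 list. Its percentile in SKBR3 was 53.8 and 58.0 untreated and 30.5 and 38.005 after TWEAK. HOXC5, whose start at 54033050 lies next along the cluster, showed the opposite. It had 0 bp in each SKBR3 list, while the MDA-MB-453 lists covered 1559 and 1836 bp untreated and 1586 and 1707 bp after TWEAK, at percentiles of 36.4, 41.1, 49.3 and 42.7. Over the 64 distinct starts of the 38 genes, 7 were marked in all 8 lists, 1 in SKBR3 only, 4 in MDA-MB-453 only and 52 in none, where the backgrounds over 55844 protein-coding starts were 49.9%, 2.97%, 3.14% and 34.7%.

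The upstream HOXC6 start at 54015897 and the HOXC4 start at 54016931 were marked in all 8 lists by 1 shared peak, and their windows have 967 bp in common, so their values are not independent. The peak ranked at percentile 60.8 and 67.4 in SKBR3 without TWEAK and 61.8 and 56.4 with it, above all 4 MDA-MB-453 lists, where it ranked at 40.5 and 38.5 without TWEAK and 47.7 and 44.3 with it. The canonical HOXC4 start at 54053835 was unmarked in every list. HOXC4 had 1370, 1768, 1598 and 1660 bp covered in SKBR3 and 1850, 1759, 2001 and 1986 bp in MDA-MB-453, which overlapped (exact permutation p = 0.0571, adjusted p = 0.109). Summed over both starts, HOXC6 had 2139, 2269, 2071 and 1893 bp in SKBR3 and 816, 725, 1004 and 952 bp in MDA-MB-453. It was the only HOX gene covered more in SKBR3 without overlap, with means of 2093 and 874 bp.

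HOXC8 and HOXC12 stayed unmarked between marked neighbours. For HOXC12 a short peak upstream of the promoter window, of 370, 233 and 420 bp, was called in MDA-MB-453 untreated replicates 1 and 2 and TWEAK replicate 2. It ranked low, at percentile 0.521, 7.87 and 12.2.

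**Figure D5:**
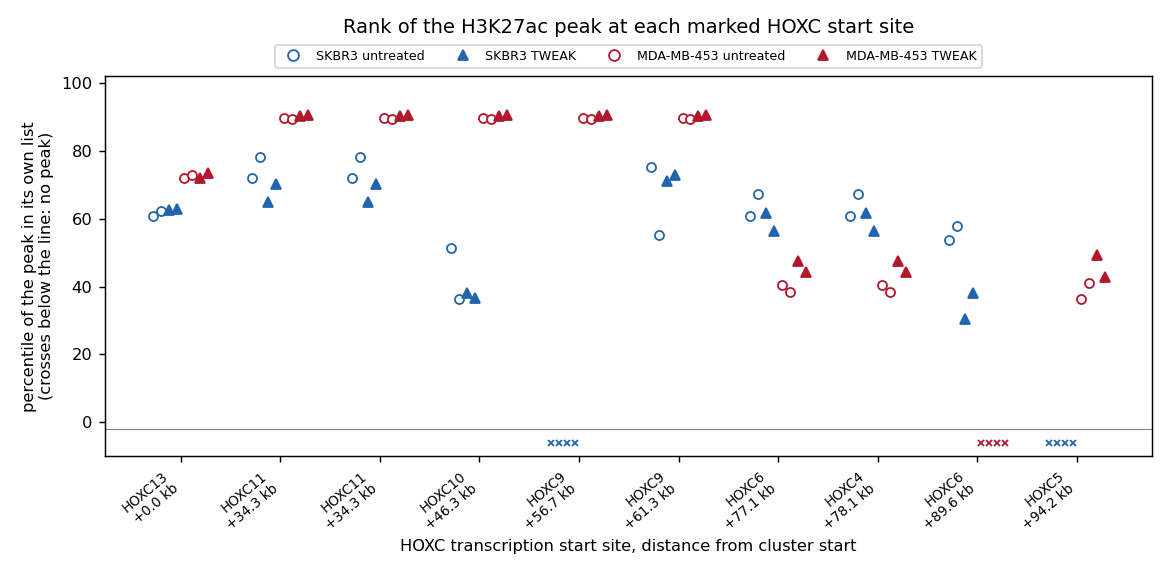
Percentile of the peak at each marked HOXC transcription start site in its own list (vertical axis), by distance of the start from the cluster start, for SKBR3 (blue) and MDA-MB-453 (red), untreated (open circles) and TWEAK (triangles). Crosses below the line stand for no peak. The upstream HOXC9 start and HOXC5 lack a peak in SKBR3 and the downstream HOXC6 start lacks one in MDA-MB-453.

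Covered promoter length did not overlap between the lines for 6 HOX genes. HOXB2, HOXB3, HOXC5, HOXC9 and HOXC10 were higher in MDA-MB-453, 5 of 38 beside 22.1% of all protein-coding genes, and HOXC6 was higher in SKBR3, beside 8.77%. HOXC10 no longer separated the lines with 500 bp windows, HOXB3 with the canonical start alone, and HOXC6 with q under 1e-05. Over all 38 HOX genes neither share exceeded its background, but the 29 without a peak in any list could not be counted in either. Among genes with a peak in any list, those higher in MDA-MB-453 were 5 of 9 HOX genes and 4418 of 12980 genes. Those higher in SKBR3 were 1 of 9 and 1750 of 12980. HOXB2, HOXB3 and HOXC5 entered the 9 only through their MDA-MB-453 peaks and could not have been higher in SKBR3. No excess can be read from these counts. The exact permutation test covered these 9 HOX genes, and the 6 without overlap reached its smallest p of 0.0286 (adjusted p = 0.0601). So did 47.5% of the 12980 genes tested, and 0.00% of genes passed an adjusted p of 0.05, with 6168 genes at an unadjusted p under 0.05. Percentiles of the 6 genes marked in all lists were higher in MDA-MB-453 without overlap for HOXC9, HOXC10, HOXC11 and HOXC13 (background 29.0% of 9911 genes) and higher in SKBR3 for HOXC4 and HOXC6 (30.1%).

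TWEAK neither added nor removed a promoter peak at any HOX gene. A gain required a marked promoter in both TWEAK libraries of a line and in neither of its untreated libraries. Gains numbered 0 of 38 in SKBR3 and in MDA-MB-453, beside 0.346% and 0.250% of protein-coding genes. Losses also numbered 0, beside 0.646% and 0.0751%. A loss was possible only at marked genes, 6 in SKBR3 and 9 in MDA-MB-453. Such calls were rare among all genes, so counts of 0 do not set the HOX genes apart.

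Over the HOXC cluster the TWEAK difference was small against that between lines. SKBR3 went from 29.2 kb ± 3.74 untreated to 25.6 kb ± 2.33 with TWEAK (SD, n = 2 each), a difference of −3.61 kb that was within the range of the replicates (exact two-sided permutation p = 0.667). MDA-MB-453 went from 46.9 kb ± 2.78 to 50.6 kb ± 1.41 (SD, n = 2 each), a difference of 3.69 kb without overlap (exact permutation p = 0.333), or 5.74 kb with peaks up to 1 kb apart merged. With 2 libraries against 2 the test cannot go below 0.333. Leaving out 1 library gave −6.26 kb (without untreated replicate 1) to −0.969 kb (without untreated replicate 2) in SKBR3. In MDA-MB-453 it gave 1.72 kb (without untreated replicate 1) to 5.65 kb (without untreated replicate 2). A difference between the lines in their TWEAK effect was not tested. HOXB in MDA-MB-453 differed by −0.245 kb (exact permutation p = 0.333), or by −1.63 kb with 10 kb added on each side of the cluster, and HOXD by −0.007 kb (p = 1).

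Covered promoter length followed the same directions in a few HOXC genes. In SKBR3 both TWEAK lists lay below both untreated lists for HOXC6, HOXC9 and HOXC13, 3 of 38 genes beside 10.1% of all genes, and for 0 genes above them (background 6.59%). In MDA-MB-453 both TWEAK lists lay above both untreated lists for HOXC4, HOXC6 and HOXC13, 3 of 38 beside 9.17%, and for 0 below them (6.99%). Over all 38 HOX genes these shares were near or under the background, but the 29 without a peak in any list could not be counted. Among genes with a peak in any list, the 3 shorter in SKBR3 were out of 9 HOX genes, beside 2026 of 12980 genes. The 3 longer in MDA-MB-453 were out of 9, beside 1831 of 12980. Of these 3, HOXC4 and HOXC6 were covered there by 1 shared peak, with 967 bp of window in common, so they are not independent. With the canonical start alone, or with 500 bp windows, 1 gene was longer in MDA-MB-453. The counts of 0 stood beside 1315 genes longer in SKBR3 and 1395 shorter in MDA-MB-453. At HOXC13 in SKBR3 the separation rested on 1063 bp in untreated replicate 1 against 1001 bp in TWEAK replicate 2.

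Among 49 non-coding genes with a start in the clusters, 5 were marked in all 8 lists (background 10.4% of non-coding genes), 7 in MDA-MB-453 only (1.76%), 1 in SKBR3 only (2.83%) and 33 in none (77.7%). The 5 were HOXC13-AS, HOTAIR, HOXC-AS3, HOXC-AS1 and ENSG00000273046, all in HOXC. The 7 were HOXB-AS1, HOXB-AS2, HOXC-AS2, MIR196A2, MIR615, HAGLROS and ENSG00000277994. The SKBR3-only gene, ENSG00000260597, starts downstream of HOXC4's marked start. HOTAIR, a long non-coding RNA reported to act with Polycomb complexes, starts beside HOXC11.

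Within the HOTAIR gene body lay the highest ranked HOXC peak of MDA-MB-453. It spanned 3396 and 3352 bp untreated and 3294 and 4859 bp after TWEAK, at percentiles of 93.8, 93.1, 94.3 and 92.3. In SKBR3 the same place held no peak in untreated replicate 1 and peaks of 296 bp in untreated replicate 2 and 966 and 1014 bp in TWEAK replicates 1 and 2, at percentiles of 11.2, 21.3 and 6.77. The authors' fold enrichment of these peaks was 14.6 to 19.0 in MDA-MB-453 and 2.75 to 3.09 in SKBR3.

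Genes that work with HOX proteins were counted in the same way, against backgrounds of 49.6% of protein-coding promoters marked in all lists and 35.0% in none. Of 9 genes for the DNA-binding partners PBX, MEIS and PKNOX, 6 had a promoter peak in all 8 lists, PKNOX2 in the MDA-MB-453 lists only, and PBX4 and MEIS3 in none. At MEIS1 the percentile was 15.6 to 35.5 in SKBR3 and 83.2 to 88.7 in MDA-MB-453. Of 9911 protein-coding genes marked in all lists, 29.0% separated in this direction and 30.1% in the reverse. PKNOX2 ranked at 40.2 to 52.4 in MDA-MB-453. Of 17 chromatin regulators of the Polycomb and Trithorax groups and CTCF, which insulates domains within HOX clusters, 15 had a peak in all 8 lists. RNF2 had one in 3 lists of SKBR3 and none of MDA-MB-453, and CBX7 in 3 SKBR3 and 4 MDA-MB-453 lists. CBX2, marked in all 8, had the reverse of MEIS1, with percentiles of 81.9 to 92.1 in SKBR3 and 33.8 to 44.9 in MDA-MB-453. The related homeobox genes CDX1, CDX2, CDX4, GSX1, GSX2, PDX1, EVX1 and EVX2, 8 of 8, had no promoter peak in any list. In none of these 3 lists was a promoter gained or lost with TWEAK, calls made for at most 0.646% of protein-coding genes.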

How the data were processed

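Cell line H3K27ac ChIP-seq was done by the study in biological replicates. Per the authors' methods and the labels, Trimmomatic trimmed the reads and Bowtie2 placed them on hg38. MACS2 was then run library by library against the input, and bedtools took out blacklisted regions. Calling options are not given in the sources used here. The 2 input samples have no list used here. Each deposited list has 9 columns in the layout MACS2 writes for broad peaks and gives for each peak its position, an integer score, an enrichment ratio and both significance values as −log10 p and −log10 q. The deposited score was not used, since it repeats the −log10 q. The deposited fold ratio and −log10 q served to rank peaks inside a list and, for the −log10 q, to filter them. Reads were not used, so the DiffBind comparison of the study could not be repeated, depth is unknown and no counting interval is printed. More reads or stronger enrichment can lengthen a list and widen its peaks.

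Names and ends of 334849 peaks were checked against hg38, and 0 fell outside it. Promoter windows of 1 kb each side of GENCODE release 44 basic TSS were intersected with the peaks of each list on the autosomes and X. Covered length is the number of bases under any peak. A list's percentile is the rank of the highest −log10 q of a peak in the window. Line and TWEAK contrasts used exact two-sided permutation tests over libraries. The 12 cluster tests and, separately, all 12980 promoters with a peak in any list were adjusted by the Benjamini-Hochberg method. Computations ran in Python 3.11.15 (numpy 2.4.6, pandas 2.3.3, scipy 1.17.1, matplotlib 3.10.9), tested on simulated data.

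The genes, the further gene lists and the tests were chosen with earlier results of these data known. Values in every list are given for HOX genes whose presence differed by line or TWEAK, those whose covered lengths did not overlap between lines, and those with the highest mean percentile in a cluster and line. Other HOX genes are counted and named. One result of the luminal marker list is not reported here. Sequences of the clusters are from hg38, and those of promoters and microRNAs from RefSeq. Alternatives were q under 1e-05, lists of equal size (36148 peaks), peaks up to 1 kb apart merged, clusters extended by 10 kb, windows of 500 bp and 2.5 kb, the canonical TSS alone, an overlap of 200 bp, the rank by fold enrichment, a replicate block, and the omission of each library in turn.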

Additional observations from a re-analysis of the deposited data

Results flagged for a closer look

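Within each line, the 4 libraries were examined for 1 that stood apart by Dixon's criterion, for every covered length and percentile of the marked HOX genes and clusters. This picked out 4 of 34 sets of values. The usual chance rate of about 1 set in 20 cannot be applied here. Some sets held equal values throughout, as the covered length of HOXC11 did, and genes under 1 shared peak had the same percentiles. For HOXC10 the percentile of the promoter peak was 51.4 in SKBR3 untreated replicate 1, far above the next value of 38.1. For HOXC13 the covered length was 1713 bp in SKBR3 untreated replicate 2, where the next highest was 1063 bp. For HOXB3 it was 1860 bp in MDA-MB-453 TWEAK replicate 2 against 2001 bp in the other 3, and for HOXC9 it was 3750 bp in MDA-MB-453 untreated replicate 1 against 4002 bp in the other 3. In both of the latter cases the other 3 values were equal, at the length of the windows of HOXC9 and of the 1 marked HOXB3 window. No cause was tested.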

How the results depend on the processing

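Of 171 recomputed values other than those that left out a library, 160 kept their direction and their side of the threshold, or stayed within the tolerance set for counts and values. The threshold was an unadjusted p of 0.05. Part of the 160 was fixed in advance and is no measure of stability. The exact permutation tests of TWEAK could not go below p = 0.333, and HOXA had 0 kb in every list. Lists of equal size, merging, wider clusters, the 200 bp overlap and ranking by fold enrichment moved no unadjusted p across the threshold and turned no direction. Among values short of the threshold, merging moved the HOXC difference with TWEAK in MDA-MB-453 from 3.69 to 5.74 kb. Adding 10 kb on each side moved that of HOXB from −0.245 to −1.63 kb in MDA-MB-453 and from 0 to 0.247 kb in SKBR3. HOXC10 was no longer covered more in MDA-MB-453 without overlap with 500 bp windows, nor HOXB3 with the canonical TSS alone. With q under 1e-05, the HOXD line difference was 0.105 kb (exact permutation p = 1), the HOXD difference with TWEAK in MDA-MB-453 became 0.210 kb, the genes marked in all lists were 3 (HOXC9, HOXC11 and HOXC13), and those covered more in SKBR3 were 0, HOXC6 no longer among them. With the canonical TSS alone, HOXC6 became the 1 gene marked in SKBR3 only, and 1 gene, HOXC13, was longer with TWEAK in MDA-MB-453. That count was also 1 (HOXC6) with 500 bp windows, and 1 gene (HOXB3) was shorter there with 2.5 kb windows. Apart from the canonical TSS, which removes other starts by construction, the cause was not tested.

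With the replicate number as a block, the line differences were 12.8 kb (HOXB), 21.4 kb (HOXC) and 0.562 kb (HOXD). They had p = 0.125 in an exact sign-flip test over 4 pairs, the smallest it allows, so this higher p reflects the number of pairs. The numbers are not shown to pair the libraries: deviations of replicates from their group mean over 12980 promoters correlated between treatments at 0.248 in SKBR3 and −0.029 in MDA-MB-453, with 2 pairs a line.

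Leaving out 1 library at a time gave the following ranges. The HOXB line difference was 12.7 to 12.9 kb, HOXC 20.2 to 22.9 kb and HOXD 0.450 to 0.673 kb, the last with an exact permutation p of 0.0571 without any 1 SKBR3 library. The TWEAK difference of HOXD in MDA-MB-453 was −0.341 to 0.327 kb, turning positive without untreated replicate 1 (0.327 kb) or TWEAK replicate 1 (0.133 kb). That of HOXB was −0.400 kb (without untreated replicate 1) to −0.089 kb (without untreated replicate 2). Genes covered more in MDA-MB-453 numbered 5 to 7, the 7 without SKBR3 untreated replicate 2. Genes shorter with TWEAK in SKBR3 numbered 3 to 5 (5 without untreated replicate 1), and longer 0 to 2 (2 without untreated replicate 2). In MDA-MB-453 the shorter genes numbered 0 to 1 (HOXC5 without untreated replicate 1, HOXB3 without TWEAK replicate 1) and the longer 3 to 5 (5 without untreated replicate 2). Counts of genes marked by line or TWEAK did not move. Unknown depth limits every statement of absence.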
